A study of Mus musculus with 4 samples.

Results

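Endothelial nuclei of the mouse hippocampus are described here. They were picked from single-nucleus RNA-seq (snRNA-seq) by their transcripts: at most 20% of the unique transcripts (unique molecular identifiers, UMIs) of a nucleus were mitochondrial, the summed UMIs of Flt1, Slco1a4, Adgrl4, Mecom, Abcb1a and Cyyr1 came to at least 3 and to at least 15 per 10000, and Syt1 and Snap25 together, the neuronal limit, stayed under 20 per 10000. This rule found 335 of 56834 nuclei that passed the mitochondrial limit, or 0.589%. The 14 members with exactly 3 marker UMIs stood just inside the rule, 10 nuclei with 2 marker UMIs that met the other limits stood just outside it, and 28 nuclei were kept out by the neuronal limit alone. No barcode was shared between pools.

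The study asked how repeated social defeat (RSD), in which male mice are confronted by an aggressive intruder, changes the hippocampus, and whether microglia and neuronal IL-1R1 take part. Each of 8 conditions was a single pool of hippocampi from 3 mice, and all 8 pools were barcoded together and split over 4 sublibraries. In the diet experiment, C57BL/6 mice on vehicle chow (Control Vehicle, RSD Vehicle) or on chow with PLX5622, a CSF1R inhibitor that depletes microglia (Control PLX5622, RSD PLX5622), were left undisturbed or defeated. In the genotype experiment, Cre-negative IL-1R1+/+ mice (Control WT, RSD WT) and nIL-1R1-/- mice, in which Cre under Vglut2 removes Il1r1 from glutamatergic neurons (Control KO, RSD KO), were treated alike. Cre was not directed at endothelium, so endothelial Il1r1 was not the target of the deletion. A control pool and the RSD pool of the same diet or genotype form a pair, which gives 4 pairs. Since a pool is 1 preparation, p-values over pools measure the spread between these pools and pairs, which includes the preparation.

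Brain endothelial cells line the vessels and form the blood-brain barrier, with sealed tight junctions, few vesicles, and transporters that carry glucose, amino acids, hormones and iron inward and drugs outward. Along the vessel they differ in arteries, capillaries and veins, and pericytes and smooth muscle cells, together called mural cells, surround them. IL-1R1 binds IL-1, recruits its co-receptor IL-1RAP, and signals through MyD88 and NF-kB; in brain vessels it is best known from venules. Corticosteroids cross into these cells and act through the receptors encoded by Nr3c1 and Nr3c2, of which Fkbp5 is a well-known target.

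The pools held 13 to 62 endothelial nuclei each. Control Vehicle had 28, RSD Vehicle 43, Control PLX5622 13, RSD PLX5622 58, Control WT 62, RSD WT 52, Control KO 32 and RSD KO 47. Depth was uneven as well. The summed endothelial UMIs were 12593 in Control PLX5622, 41888 in Control Vehicle and 88048 in RSD PLX5622, and lay between 111749 and 273125 in the other pools. The median nucleus had 1768 UMIs, and by pool the median ran from 434 in Control PLX5622 to 3416.5 in RSD WT. Control PLX5622 is therefore the least precise pool: 1 nucleus held 42.9% of its UMIs, against 9.14% to 15.9% in the others, and a gene absent there could still have been present at up to 238 CPM (UMIs scaled to a library total of 1e6), the level of 3 UMIs.

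The label was checked with genes that the rule did not use. A list of 22 endothelial identity genes summed to 7119 CPM in the chosen nuclei and 50.0 CPM in all other nuclei, and 20 of the 22 were above the other nuclei in all 8 pools. Cldn5, the main claudin of the barrier's tight junctions, stood at 111 CPM and was 804-fold above other nuclei. Emcn, an endothelial sialomucin, stood at 478 CPM, and Kdr, the VEGF receptor, at 150.2 CPM. Among genes with at least 100 UMIs, the 15 highest ratios to other nuclei belonged to Robo4 (1175), Dipk2b (1010), Slco1a4, Tie1 (904), Flt1, Cldn5, Zfp366 (790), Adgrl4, Abcb1a, Ushbp1 (561), Adcy4, Fas, Mecom, Slc22a8 and Fendrr, of which Slco1a4, Flt1, Adgrl4, Abcb1a and Mecom are in the rule. Robo4 is an endothelial guidance receptor, Tie1 an orphan receptor that works with the angiopoietin receptor, and Slc22a8 an organic anion transporter of the barrier. As the nuclei were chosen by their transcripts, these ratios are a description and carry no test.

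The promoters of Robo4 and Ushbp1, both among the leading genes and neither in the rule, are shown because both hold the letters CAGGAAG, a core that ETS-family factors bind and that is common in endothelial promoters. The windows are the 250 bases before the RefSeq start on GRCm38.p6, read 5′ to 3′ on the gene's strand, with the match in capitals. Robo4 lies on the plus strand at chr9:37401722-37401971, with the match at -50 from the start, and Ushbp1 on the minus strand at chr8:71395802-71396051, with the match at -64 on the opposite strand, so that it reads CTTCCTG.
Robo4: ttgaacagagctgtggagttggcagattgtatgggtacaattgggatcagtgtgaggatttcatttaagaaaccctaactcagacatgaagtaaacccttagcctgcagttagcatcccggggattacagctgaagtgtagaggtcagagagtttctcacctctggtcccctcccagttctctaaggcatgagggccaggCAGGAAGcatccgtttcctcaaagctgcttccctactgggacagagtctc
Ushbp1: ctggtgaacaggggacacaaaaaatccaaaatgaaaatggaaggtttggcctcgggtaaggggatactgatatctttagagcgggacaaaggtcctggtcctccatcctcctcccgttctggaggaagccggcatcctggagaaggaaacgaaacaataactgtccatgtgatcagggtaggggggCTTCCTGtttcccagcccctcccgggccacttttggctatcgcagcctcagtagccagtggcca
Searched on both strands of windows that run from 250 bases before to 50 after the start, CAGGAAG stood in 10 of 43 promoter windows of 39 leading genes (23.3%; 54 genes were looked up) and in 13.3% of 32851 mouse windows of the same length. These matches describe letters in a window and not binding.

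Markers of mural cells were also high in these nuclei. The 14 mural markers summed to 3509.6 CPM against 28.7 CPM in other nuclei, a ratio of 122. The most abundant was Atp13a5, a pericyte gene, with 1551 UMIs in 146 nuclei (43.6%), and Pdgfrb and Rgs5 stood at 352 and 321 CPM. Acta2, the smooth muscle actin, had 0 UMIs, which allows up to 3 UMIs over all members. Of the 335 nuclei, 147 (43.9%, exact binomial 95% interval 38.5% to 49.4%) carried 15 or more mural UMIs per 10000 and 145 carried none. Endothelial identity genes stood at 6441 CPM in the mural-rich nuclei and at 8218 CPM in those without a mural UMI, and the mural-rich nuclei were the deeper, with a median of 2406 against 1238 UMIs. The set thus meets the endothelial label but is not free of mural transcripts, and whether a barcode held more than 1 nucleus was not tested. The mural sum was 3963 and 4617 CPM in Control and RSD Vehicle, 3415 and 3259.6 in the PLX5622 pair, 3119.6 and 3134 in the WT pair and 3736 and 3802 in the KO pair, so it did not move in 1 direction with RSD.

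Lists of other cell types were not all lower than in other nuclei. The neuron list stood at 3653 CPM in endothelial and 23868 CPM in other nuclei, and the oligodendrocyte list at 606 against 2012 CPM. The microglia list summed to 157 CPM against 76.4 CPM, with Tmem119 and Siglech at 0 UMIs, and the fibroblast list to 58.1 against 22.8 CPM, with Lum and Col1a1 at 0. The choroid plexus, ependymal and blood list stood at 93.0 against 102 CPM. The astrocyte list reached 1293 CPM against 1027 CPM, with Aldoc at 0 UMIs.

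**Figure D1:**
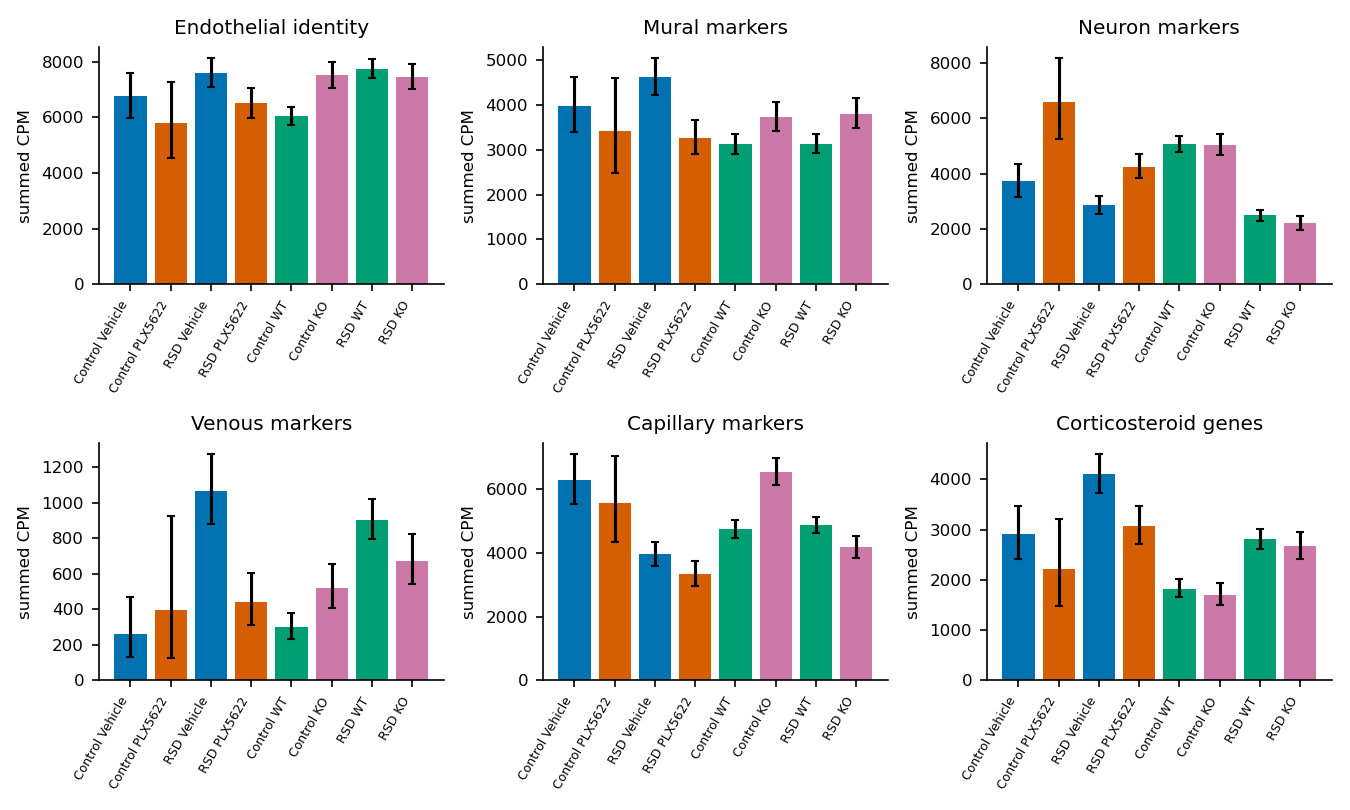
Summed CPM of 6 gene lists in endothelial nuclei, 1 bar per pool, coloured by pair (Vehicle blue, PLX5622 orange, WT green, KO pink), with exact Poisson 95% intervals that cover counting error only. Mural sums lie between 3119.6 and 4617 CPM with no common direction, whereas the neuron sums of the RSD pools lie below those of their own controls in 4 of 4 pairs and venous and corticosteroid sums above. Without Zbtb16 the corticosteroid sum was not higher after RSD in the Vehicle or the PLX5622 pair.

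The share of endothelial nuclei was higher after RSD in all 4 pairs, but an exact test over 4 pairs cannot reach 0.05. It was 0.330% in Control Vehicle and 0.586% in RSD Vehicle, 0.176% and 0.755% in the PLX5622 pair, 0.821% and 0.888% in the WT pair, and 0.491% and 0.778% in the KO pair. The RSD share was 1.77, 4.29, 1.08 and 1.58 times the control share. The WT pair thus hardly differed, and the exact binomial intervals of its pools overlapped (0.630% to 1.05% and 0.664% to 1.16%). The mean log2 ratio was 0.93 ± 0.84 (SD, n = 4 pairs), a fold of 1.90, with a two-sided exact permutation p of 0.13, which is the smallest that 4 pairs allow. Depth differed between the pools of a pair and bears on whether a nucleus reaches 3 marker UMIs. With every nucleus thinned to 500 UMIs the shares were 0.287% and 0.557% (Vehicle), 0.114% and 0.759% (PLX5622), 0.614% and 0.641% (WT) and 0.399% and 0.585% (KO), in the same direction. Counted without nuclei that held a Syt1 or Snap25 UMI, the shares were 0.189% and 0.314% (Vehicle), 0.149% and 0.469% (PLX5622), 0.437% and 0.188% (WT) and 0.246% and 0.480% (KO), so the WT pair turned and 3 of 4 pairs were higher after RSD.

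Il1r1 (ENSMUSG00000026072, chr1:40264174-40356417 on GRCm39, plus strand), the signalling receptor for IL-1, was more abundant in endothelial than in other nuclei in every pool. Endothelial nuclei held 295 of all 2820 Il1r1 UMIs (10.5%) while making up 0.589% of nuclei. The level was 143 CPM in Control Vehicle and 743 in RSD Vehicle, 238 and 249.9 in the PLX5622 pair, 96.7 and 432 in the WT pair, and 36.1 and 260.2 in the KO pair. Other nuclei of the same pools stood between 3.48 and 20.6 CPM, so the lowest endothelial pool, Control KO, was above the highest level of other nuclei. The Control PLX5622 value rests on 3 UMIs, with an exact Poisson 95% interval of 49.1 to 696 CPM, and that of Control KO on 5 UMIs, with an interval of 11.7 to 84.1 CPM. The mean log2 ratio to other nuclei was 4.14 ± 1.42 (SD, n = 8 pools), or 17.6-fold, positive in 8 of 8 pools, with a two-sided exact permutation p of 0.0078125, the smallest possible. Against only those other nuclei that were also under the limit for Syt1 and Snap25, which still held 16528 to 23589 CPM of the neuron list, the ratio was 14.1-fold (exact permutation p = 0.0078125, n = 8 pools).

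**Figure D2:**
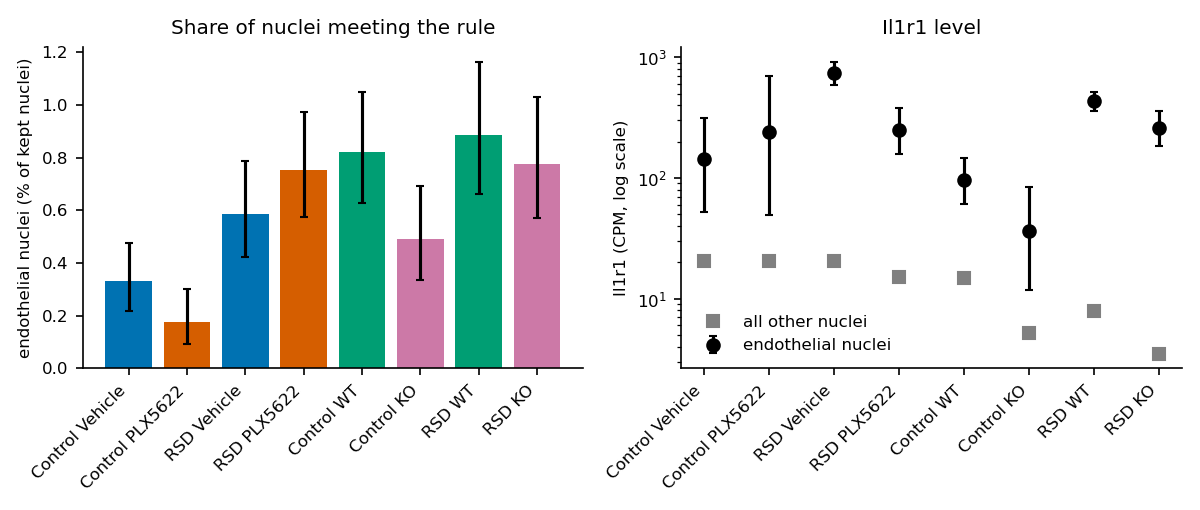
Left, endothelial nuclei as a percent of nuclei kept in each pool, with exact binomial 95% intervals, bars coloured by pair (Vehicle blue, PLX5622 orange, WT green, KO pink). Right, Il1r1 in CPM on a log axis in endothelial nuclei (black points, exact Poisson 95% intervals) and in all other nuclei (grey squares), which lie at 3.48 to 20.6 CPM, below every endothelial point.

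An Il1r1 UMI was detected in few endothelial nuclei, which at this depth does not limit the share that express the gene. An Il1r1 UMI was found in 55 of the 335, and by pool in 14.3% and 30.2% (Control and RSD Vehicle), 15.4% and 12.1% (PLX5622), 11.3% and 21.2% (WT) and 12.5% and 14.9% (KO). The share among other nuclei low in Syt1 and Snap25 lay between 0.864% and 5.01%, at median depths of 540 to 2300 UMIs, against 434 to 3416.5 UMIs in endothelial nuclei. Thinned to 500 UMIs, the endothelial share was 7.69% and 10.3% (Vehicle), 0 of 6 nuclei and 6.38% (PLX5622), 5% and 9.80% (WT), and 0 of 32 nuclei and 4.55% (KO). Single nuclei weighed heavily. The richest nucleus of RSD Vehicle held 42 of 83 UMIs, that of RSD WT 36 of 118 and that of Control WT 15 of 22. Without the richest nucleus of each pool the levels were 76.8 and 407 CPM (Vehicle), 85.5 and 174 (PLX5622), 31.6 and 317 (WT) and 22.5 and 170.0 (KO). These nuclei were removed by their Il1r1 count, and Control PLX5622 lost 2 of its 3 UMIs. The higher RSD values in each pair are therefore no test of the change.

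**Figure D3:**
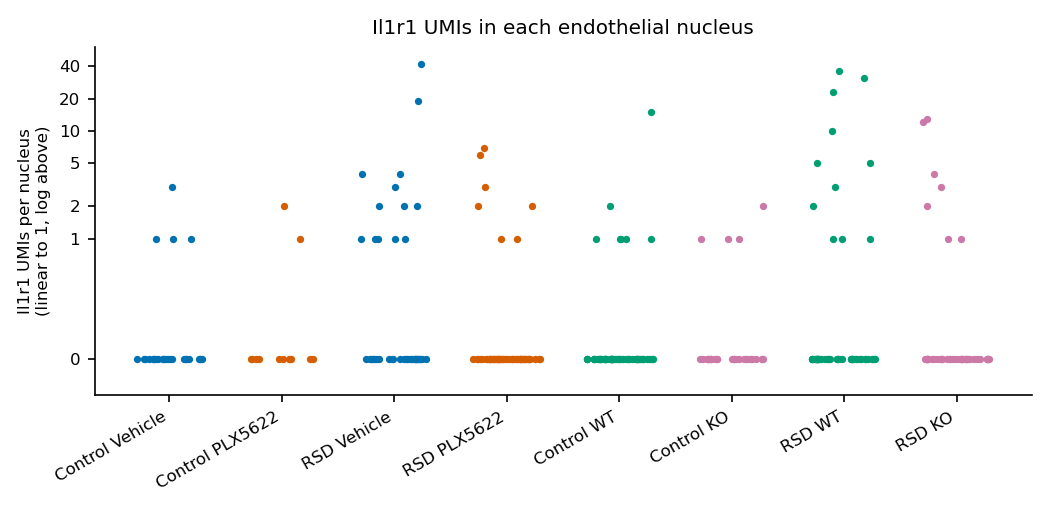
Il1r1 UMIs in each of the 335 endothelial nuclei (1 point each), spread sideways within its pool and coloured by pair; the axis is linear to 1 and logarithmic above. Most nuclei have 0, and the highest points are 42 UMIs in RSD Vehicle and 36 in RSD WT.

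RSD raised endothelial Il1r1. In the edgeR quasi-likelihood fit over the 8 pools the log2 fold change was 2.19 ± 0.31 (SE), or 4.56-fold, with a Benjamini-Hochberg adjusted p of 4.79e-09. The groups did not overlap, but the margin was narrow, because Control PLX5622 at 238 CPM stood just under RSD PLX5622 at 249.9 CPM and RSD KO at 260.2 CPM. With 0.5 UMI added to each pool the direction held in 3 of 4 pairs. The change stood at 1.99 to 2.34 with any 1 pair left out. Without the richest nuclei it was 2.88 ± 0.40 (adjusted p = 1.72e-09, edgeR). As those nuclei were removed by their Il1r1 count, this larger value is no test of the change. In the diet pairs alone the change was 1.73 ± 0.62 and no longer passed (adjusted p = 0.232, edgeR). Among nuclei without UMIs of other cell types' markers it was 0.47 ± 0.56 (adjusted p = 0.877). Il1r1 was too low to be tested among the 145 nuclei without a mural UMI, where it stood at 128 and 287 CPM (Vehicle), 1055 and 265 (PLX5622), 52.5 and 183 (WT) and 0 and 390.1 (KO), and at 320.4 CPM in mural-rich against 211 CPM in mural-free nuclei overall.

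Il1rap, the co-receptor gene, did not pass the test. It stood at 71.6 and 35.8 CPM in Control and RSD Vehicle, 397 and 45.4 in the PLX5622 pair, 96.7 and 87.9 in the WT pair, and 101 and 101 in the KO pair, below the 167 to 256 CPM of other nuclei in every pool but Control PLX5622, whose value came from 5 UMIs. Its RSD change was -0.48 ± 0.39 on the log2 scale (adjusted p = 0.696, edgeR). Il1r2, the decoy receptor, Il1b and Myd88 had 2 UMIs each over all members, and Il1rn and Il1a had 0. Nfkbia, the NF-kB inhibitor that NF-kB itself induces, stood at 105 CPM against 2.35 CPM in other nuclei. Of the 25 genes of IL-1, TNF and NF-kB signalling 8 could be tested, 1 rose (Il1r1) and 0 fell, with a median log2 change of 0.01, beside 1.73% that rose and a median of 0.04 over all genes tested.

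Across the transcriptome of endothelial nuclei, 2432 genes had counts enough for a test, and RSD changed 110 of them (4.52%) at an adjusted p under 0.05: 42 rose (1.73%) and 68 fell (2.8%). DESeq2 called 25 of the 110. In the diet pairs alone 89 of the 110 were tested and 1 passed. In nuclei without a Syt1 or Snap25 UMI 44 were tested and 0 passed. The balance of directions turned with the filter and the nuclei kept: 17 rose and 3 fell without a count filter, 33 and 19 with a minimum count of 3, 26 and 14 without the deepest nucleus of each pool, and 7 and 2 without nuclei carrying other cell types' UMIs. Of the 42 that rose, 41 were more abundant in endothelial than in other nuclei, with a median ratio of 14.8. Of the 68 that fell, 59 were less abundant in endothelial nuclei, with a median ratio of 0.168. The share of all 2432 tested genes above or below other nuclei is not given here, so these counts cannot be set beside it. Above 2 times their level in other nuclei stood 35 of the 42 and 8 of the 68. The fit limited to such genes, with its own library sizes and count filter, tested 996, which need not equal their number among the 2432. These levels include the RSD pools, so a change with RSD itself moves the ratio. Fkbp5 is among the 41, yet lay below other nuclei in every control pool. The ratios therefore describe the genes and carry no test. The number of genes that passed depended on the KO pair, since 7 passed without it, 6 of them among the 110. Without another pair 31 to 98 passed.

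**Figure D4:**
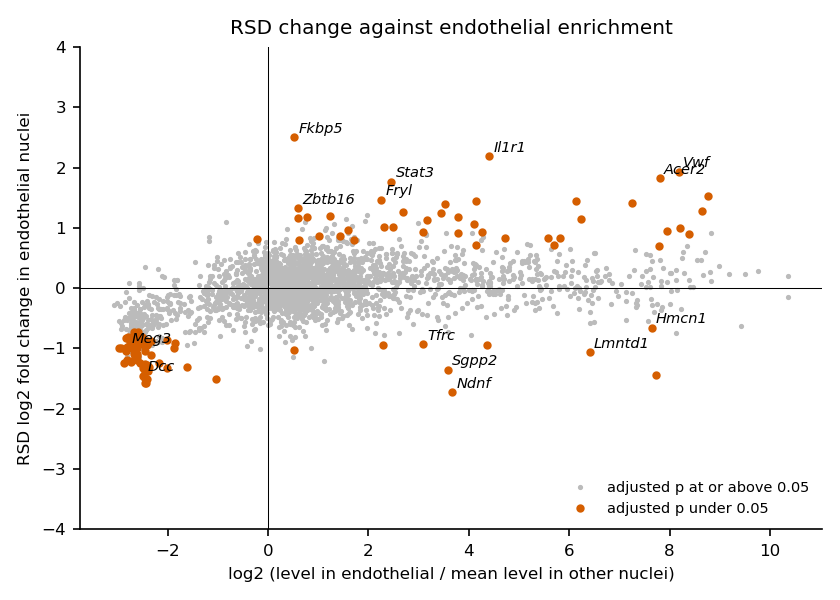
Each of 2432 tested genes by its level in endothelial over other nuclei (log2, horizontal) and its RSD change in endothelial nuclei (log2, vertical); orange points have an adjusted p under 0.05. The rising genes sit mostly right of 0 and the falling genes mostly left, with Ndnf, Tfrc, Hmcn1, Sgpp2 and Lmntd1 among the exceptions. The levels include the RSD pools, so a change with RSD also moves a gene sideways.

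Vwf, which encodes the von Willebrand factor that endothelial cells store and release to capture platelets, followed Il1r1 in rank. Its levels were 23.9 and 546 CPM in Control and RSD Vehicle, 159 and 193 in the PLX5622 pair, 39.5 and 535 in the WT pair and 310.1 and 383 in the KO pair. The RSD pool was higher in each pair, but Control KO lay above RSD PLX5622, so the groups overlapped. In RSD Vehicle single nuclei held 22 and 14 of the 61 Vwf UMIs. The log2 change was 1.93 ± 0.29 (adjusted p = 5.27e-08, edgeR), 1.12 without the WT pair (adjusted p = 0.138) and 3.48 without the KO pair. The share of nuclei with a Vwf UMI went from 3.57% to 30.2% (Vehicle), 15.4% to 17.2% (PLX5622), 9.68% to 75% (WT) and 53.1% to 53.2% (KO). Among nuclei without a mural UMI the change was 2.81 (adjusted p = 0.00112).

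Acer2, a ceramidase that releases the sphingosine from which sphingosine-1-phosphate is made, was higher after RSD in every pair. It stood at 23.9 and 358 CPM (Vehicle), 79.4 and 477 (PLX5622), 237 and 421 (WT) and 50.5 and 484 (KO), with every RSD pool above every control pool, although Control Vehicle and Control PLX5622 rest on 1 UMI each. The log2 change was 1.83 ± 0.29 (adjusted p = 1.6e-07, edgeR), 1.33 without the KO pair (adjusted p = 0.121). Fryl, also on 1 UMI in Control PLX5622, stood at 215 and 1083 CPM (Vehicle), 79.4 and 749.6 (PLX5622), 470.1 and 1314 (WT) and 577 and 1026 (KO), with no overlap and a change of 1.47 ± 0.23 (adjusted p = 1.29e-07). In the PLX5622 and Vehicle pairs alone Fryl was 1 of 2 genes that passed (2.50, adjusted p = 0.0144).

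Of the corticosteroid-responsive genes, Fkbp5 and Zbtb16 rose. Fkbp5, whose product holds the glucocorticoid receptor in a low-affinity state, stood at 95.5 and 224 CPM (Vehicle), 0 and 239 (PLX5622), 17.6 and 201 (WT) and 43.3 and 188 (KO). The RSD pools lay above the 3 control pools with a Fkbp5 UMI, but the 0 of Control PLX5622 allows up to 238 CPM, which is above RSD Vehicle, RSD WT and RSD KO, so separation of the groups was not shown for that pool. Its log2 change was 2.51 ± 0.42 (adjusted p = 1.02e-06, edgeR). Zbtb16, a zinc finger repressor induced by glucocorticoids in many cells, stood at 1265 and 2469.8 CPM (Vehicle), 715 and 1590.0 (PLX5622), 488 and 926 (WT) and 195 and 990.2 (KO), a change of 1.33 ± 0.22 (adjusted p = 1.02e-06) that was 0.98 without the KO pair (adjusted p = 0.100). Control Vehicle lay above RSD WT and RSD KO, so Zbtb16 differed within pairs and not between the groups as a whole. The receptor genes themselves gave changes of 0.29 ± 0.28 for Nr3c1 (adjusted p = 0.762) and -0.18 ± 0.23 for Nr3c2 (adjusted p = 0.830). Of 22 listed genes 7 could be tested, 2 rose and 0 fell, with a median log2 change of 0.27, beside 1.73% that rose and a median of 0.04 over all genes tested. The list's sum was 2913 and 4107 CPM (Vehicle), 2223 and 3078 (PLX5622), 1828 and 2816 (WT) and 1709 and 2674 (KO), higher in 4 of 4 pairs by a mean log2 of 0.56 (exact permutation p = 0.13, the smallest possible, n = 4 pairs). Much of this was Zbtb16, with 53 of 122 and 276 of 459 UMIs of the list in Control and RSD Vehicle. In the PLX5622 pair it held 9 of 28 and 140 of 271. Without Zbtb16 the sum was not higher after RSD in the Vehicle or the PLX5622 pair. In such sums fewer nuclei of a kind and less RNA per nucleus cannot be told apart.

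Promoters of the rising genes were searched for the receptor's letters. The core ACANNNTGT, a palindrome that reads the same on both strands, stood in 2 of 48 windows of 35 rising genes (4.17%), in 4.45% of the windows of genes tested in endothelial nuclei and in 6.85% of all windows. The full palindrome of the glucocorticoid response element stood in 0 of the 48 and in 3 of 32851. Nek7, a kinase of the NLRP3 inflammasome that rose by 0.92 ± 0.26 (adjusted p = 0.0174, edgeR), holds 1 of the 2 matches, at -176 on the minus strand of chr1:138619758-138620007 (GRCm38.p6, RefSeq), shown in capitals to make clear how short the match is; Nek7 was picked for this match after its values were seen.
Nek7: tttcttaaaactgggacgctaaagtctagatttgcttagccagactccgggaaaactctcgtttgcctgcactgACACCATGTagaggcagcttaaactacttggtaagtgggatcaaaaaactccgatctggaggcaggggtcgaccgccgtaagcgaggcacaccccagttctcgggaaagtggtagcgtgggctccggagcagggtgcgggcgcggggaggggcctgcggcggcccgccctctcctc
TTCNNNGAA, the core bound by STAT factors, stood in 4.17% of the windows of rising genes, 6.15% of those of tested genes and 8.30% of all, and a consensus NF-kB site in 0 of 48 and in 51 of all 32851. A missing match says only that these letters were not in the window.

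Of 25 genes for leukocyte adhesion, chemokines and prostaglandins, a list that also holds Stat3 and Osmr, 3 could be tested, 2 rose (both of these) and 0 fell, beside 1.73% of all genes tested that rose. Stat3, a transcription factor of cytokine signalling, stood at 71.6 and 170.0 CPM (Vehicle), 0 and 159 (PLX5622), 48.3 and 234 (WT) and 108 and 267 (KO). All RSD pools lay above the other 3 control pools, but the 0 of Control PLX5622 allows up to 238 CPM, above RSD Vehicle, RSD PLX5622 and RSD WT. Stat3 had a change of 1.77 ± 0.36 (adjusted p = 1.48e-04, edgeR) that was 1.43 without the WT pair (adjusted p = 0.145). Osmr, the receptor for oncostatin M that signals to STAT3, stood at 215 and 277, 0 and 204, 189 and 322, and 238 and 513 CPM in the same order of pairs, with the same limit on the 0 of Control PLX5622, a change of 0.90 ± 0.28 (adjusted p = 0.0281). Cxcl12, a chemokine and the third tested gene, gave -0.28 ± 0.26 (adjusted p = 0.755). The classic activation genes were nearly silent. Sele, Selp, Ccl2, Cxcl1, Cxcl10, Ptgs1 and Lrg1 had 0 UMIs over 335 nuclei, and Vcam1 and Ptgs2 had 4 each and Icam1 8, so a change in them was not detectable at this depth.

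The other rising genes of the leading 10 were Fmnl2, Rin3, Myrip and Tshz2. Fmnl2, a formin that elongates actin, rose by 1.20 ± 0.24 (adjusted p = 9.15e-05, edgeR), from 358 to 859, 79.4 to 795, 321 to 674 and 288 to 557 CPM in the Vehicle, PLX5622, WT and KO pairs, without overlap and on 1 UMI in Control PLX5622. Rin3, an exchange factor for Rab5, rose by 1.44 ± 0.30, Myrip, which links Rab27 on secretory granules to actin and myosin, by 1.18 ± 0.25, and Tshz2, a zinc finger factor, by 0.96 ± 0.22, each higher in 4 of 4 pairs. Fmnl2, Rin3, Myrip and Tshz2 did not pass without the KO pair (adjusted p of 0.0756 to 0.142). Podxl, an anti-adhesive sialomucin of the luminal surface and the 1 of 16 tested identity genes that rose, changed by 0.84 ± 0.26 (adjusted p = 0.0293). Of all genes tested, 1.73% rose.

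**Figure D5:**
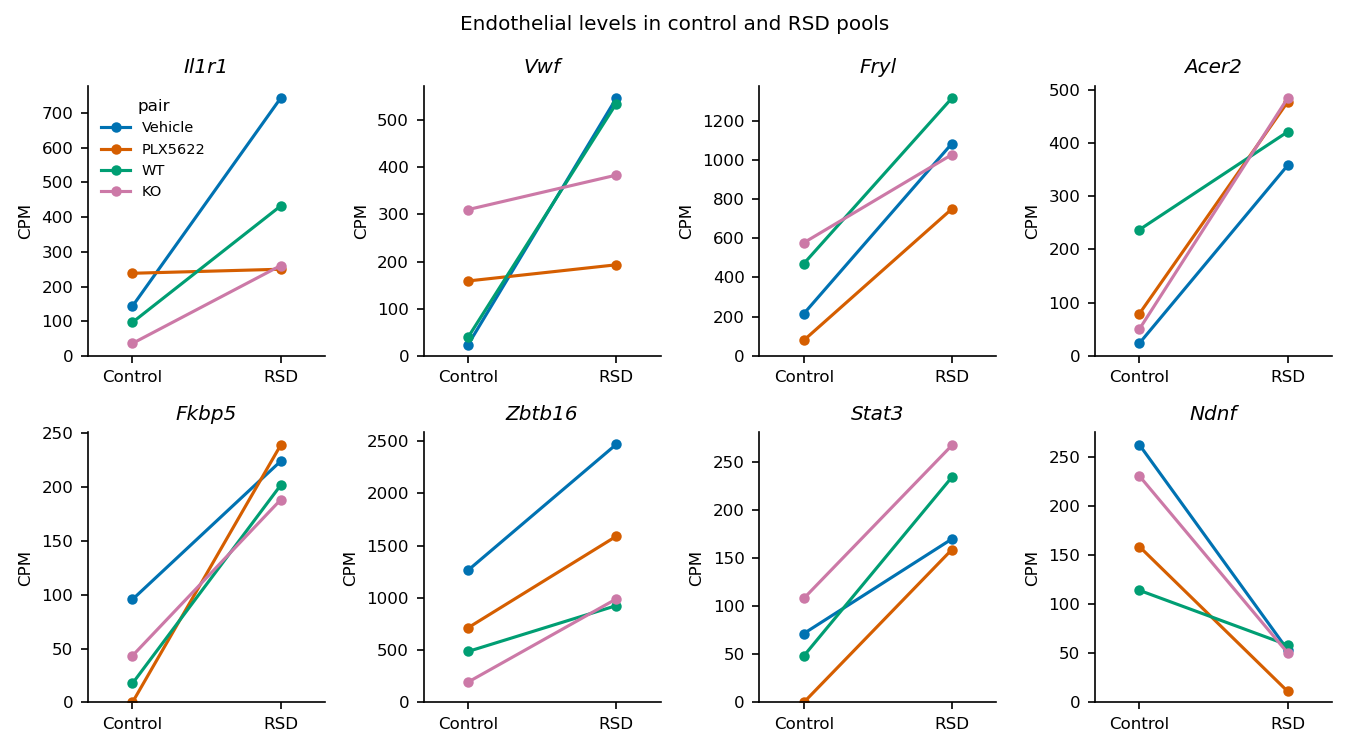
Level (CPM, linear axes from 0) of 8 genes in endothelial nuclei of control and RSD pools, 1 line per pair (Vehicle blue, PLX5622 orange, WT green, KO pink). The lines of Fryl, Acer2, Fkbp5 and Stat3 end above every control value drawn (Fkbp5 and Stat3 are drawn at 0 in Control PLX5622, where 0 UMIs allow up to 238 CPM), those of Vwf and Zbtb16 overlap between groups, the PLX5622 line of Il1r1 is nearly flat (238 and 249.9 CPM) and Ndnf falls in all 4 pairs.

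The leading genes that fell were mostly less abundant in endothelial than in other nuclei. The 10 with the smallest p among genes lower in 4 of 4 pairs included Pcdh9, Dcc, Tenm2, Ctnna2, Rbfox1, Meg3, Mgat4c, Tenm3 and Epha6. Their endothelial level was 0.148 to 0.190 times that in other nuclei. They were not tested as a group, and of these only Meg3 is in the neuron list. Meg3, for example, stood at 1313 and 949 CPM (Vehicle), 2620.5 and 1397 (PLX5622), 2048 and 886 (WT) and 1608 and 629 (KO), against 7895 to 11511 CPM in other nuclei, and fell by 0.98 on the log2 scale (SE 0.21, adjusted p = 3.85e-04, edgeR). The neuron list fell with them: 5 of 8 tested genes (Meg3, Nrxn3, Celf4, Snhg11, Camk2a) fell, with a median log2 change of -0.90, beside 2.8% of all genes tested that fell, and its sum was 3724 and 2864 CPM (Vehicle), 6591 and 4259 (PLX5622), 5057 and 2489.7 (WT) and 5034 and 2219 (KO), lower in 4 of 4 RSD pools. The part of neuronal RNA in these nuclei in the falling genes was not tested. A smaller neuronal share raises every other gene's CPM. The tests were therefore repeated on 996 genes above 2 times their level in other nuclei, where 16 passed. These genes were chosen by levels that include the RSD pools, which favours rising genes, so the 16 are no test of the part of that share. Of the 110 genes 42 were among these 996, and 15 of the 42 passed again.

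The 9 falling genes that were more abundant in endothelial nuclei were picked after their values were seen, apart from Ndnf, Tfrc, Hmcn1 and Lmntd1. Ndnf, a secreted factor, fell from 263 to 53.7 CPM (Vehicle), 159 to 11.4 (PLX5622), 114 to 58.6 (WT) and 231 to 50.6 (KO). Every RSD pool lay below every control pool, but Control PLX5622 rests on 2 UMIs and RSD PLX5622 on 1. Separation of the groups was thus not shown for Control PLX5622. Its change was -1.73 ± 0.37 (adjusted p = 4.94e-04, edgeR), -1.58 without the KO pair (adjusted p = 0.160). Tfrc, the transferrin receptor that takes iron across the barrier, stood at 573 and 295 CPM (Vehicle), 318 and 159 (PLX5622), 185 and 150.1 (WT) and 375 and 108 (KO), lower in each pair with overlap between groups, a change of -0.93 ± 0.27 (adjusted p = 0.0209). Hmcn1, an extracellular matrix protein, stood at 2077 and 1047, 1668 and 1113, 1648 and 1446, and 2740.5 and 1352 CPM in the same order, all RSD pools below all control pools, with a smaller change of -0.66 ± 0.21 (adjusted p = 0.0435).

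Pla1a, a phospholipase, fell from 215 to 80.5, 238 to 56.8, 83.5 to 29.3 and 64.9 to 28.9 CPM, a change of -1.44 ± 0.44 (adjusted p = 0.0282, edgeR) on 3 to 19 UMIs a pool. Sgpp2, a phosphatase of sphingosine-1-phosphate, changed by -1.35 ± 0.28 (adjusted p = 2.54e-04), lower in 3 of 4 pairs, and Lmntd1 by -1.06 ± 0.25 (adjusted p = 0.00161), also in 3 of 4. Fgf13, Lhfpl2 and Arhgap18 were the others, at -1.02, -0.94 and -0.94. Acer2 and Sgpp2, which act at different steps of sphingosine metabolism, thus moved in opposite directions.

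Barrier transporters and junction genes are set here beside the 4.52% of all tested genes that passed. Of 17 tested of 21 blood-brain barrier transporters, 0 rose and 1 fell (Tfrc), with a median log2 change of -0.28. Slc2a1, the glucose transporter of the barrier, gave 0.55 ± 0.22 (adjusted p = 0.158), Slco1c1, the thyroxine transporter, -0.32 ± 0.21 (adjusted p = 0.595) and Abcc4, an efflux pump, 0.43 ± 0.21 (adjusted p = 0.337). Of 16 tested junction genes 0 passed, with a median of 0.03, although the list's sum was higher after RSD in 4 of 4 pairs by a mean log2 of 0.25 (exact permutation p = 0.13, n = 4 pairs). Tjp1 held 76 of 257 and 255 of 712 UMIs of the list in Control and RSD Vehicle. In the KO pair it held 245 of 868 and 285 of 896. Without Tjp1 the sum was lower after RSD in the Vehicle and KO pairs. Tjp1 gave 0.56 ± 0.22 (adjusted p = 0.136), Pard3, a polarity scaffold, 0.57 ± 0.22 (adjusted p = 0.119) and Cgnl1 0.02 ± 0.22.

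Growth and matrix pathways are also set beside the 4.52% of all tested genes that passed. At that share a list of 7 to 17 tested genes would often hold 0, so 0 is no result about a pathway. Of 17 tested genes of VEGF, angiopoietin, Notch and BMP signalling, of 15 for basement membrane and integrins, and of 14 for Wnt and beta-catenin signalling, 0 passed in either direction, with medians of 0.24, 0.19 and -0.14. Col4a2, a basement membrane collagen, gave 0.46 ± 0.22 (adjusted p = 0.292, edgeR), and Lef1, the Wnt-responsive factor, 0.01 ± 0.21. Of 11 tested genes for caveolae and transcytosis 1 fell (Tfrc, counted above). Only 2 of 24 interferon genes, and 0 of 19 immediate early and heat shock genes, had counts enough to be tested. Of 7 tested mural markers 0 passed (median 0.09).

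Markers of vessel position were counted next. Of the 10 capillary markers 9 were tested and 2 fell (Tfrc and Hmcn1), with a median log2 change of -0.35, beside 2.8% that fell and a median of 0.04 over all genes tested. The capillary sum was 6279 and 3955 CPM (Vehicle), 5559 and 3339 (PLX5622), 4745 and 4866 (WT) and 6534 and 4185 (KO), lower in 3 of 4 pairs (mean log2 -0.50, exact permutation p = 0.250, n = 4 pairs). Of 13 venous markers only Vwf could be tested. The venous sum was 263 and 1065 CPM (Vehicle), 397 and 443 (PLX5622), 299 and 904 (WT) and 519 and 672 (KO), higher in 4 of 4 pairs (mean log2 1.04, exact permutation p = 0.13, n = 4 pairs). Much of this was Vwf: without it the sum was 239 and 519 CPM (Vehicle), 238 and 249.9 (PLX5622), 259 and 370 (WT) and 209 and 289 (KO), a mean log2 of 0.54 or 1.46-fold (exact permutation p = 0.13, n = 4 pairs). None of the 14 arterial markers had counts enough to be tested.

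The nuclei with an Il1r1 UMI were richer in venous markers than those without. The list did not hold Il1r1, and the comparison was made within each of the 7 pools with at least 3 such nuclei, which left out Control PLX5622. Venous markers stood at 1877 against 339 CPM in RSD Vehicle, 1045 against 825 in RSD WT, 914 against 583 in RSD KO, 831 against 454 in Control KO, 537 against 424 in RSD PLX5622 and 364 against 272 in Control WT. In Control Vehicle they were 235 against 269.8 CPM on 2 and 9 UMIs, and the pseudocount of 1 UMI makes its log2 ratio positive (0.23). The mean log2 ratio was 0.78 ± 0.75 (SD, n = 7 pools), a fold of 1.72, positive in 7 of 7 pools (two-sided exact permutation p = 0.0156, adjusted over 3 lists 0.0469). Without the pseudocount it was 0.70, positive in 6 of 7 pools (exact permutation p = 0.0312, adjusted 0.0469). Without Vwf it was 0.78, also positive in 6 of 7 (exact permutation p = 0.0312, adjusted 0.0703). RSD Vehicle weighed most, and there single nuclei held 41 and 24 of the 99 venous UMIs in nuclei with an Il1r1 UMI. Without RSD Vehicle the mean was 0.51 (exact permutation p = 0.0312, n = 6 pools). With any 1 pool left out the exact permutation p was 0.0312, the smallest that 6 pools allow. Adjusted over 3 lists it was 0.0938, above the threshold, for each pool except Control Vehicle (0.0469), where capillary markers also had this smallest p. With 6 pools the adjusted p cannot pass unless another list also reaches that smallest p. Arterial markers gave -0.23 ± 0.68 (exact permutation p = 0.375, n = 7 pools), higher in 2 of 7, and capillary markers -0.37 ± 0.34 (exact permutation p = 0.0469, adjusted 0.0703, n = 7 pools), higher in 1 of 7.

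Vwf was seen in 61.8% of the 55 nuclei with an Il1r1 UMI and in 28.2% of the 280 without, at 464 and 261 CPM. Depth differed between these nuclei, with medians of 3325 and 1569 UMIs, and so did mural markers, at 4279 and 3182 CPM; their part in the venous difference was not tested. Among genes with at least 50 UMIs, those with a high ratio of the CPM in nuclei with an Il1r1 UMI to the CPM in nuclei without included Gm5127 (34.6), 4930578G10Rik (3.39), Il6ra (3.29) and Fkbp5 (3.17). Il6ra encodes the IL-6 receptor. These ratios were taken over the 8 pools summed and describe 55 nuclei, 10 of which held the 59 Gm5127 UMIs of that side. RSD pools gave 38 of the 55 nuclei and 162 of the 280 without. Whether they held within pools was not tested.

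The RSD response of endothelial nuclei was then set against that of all other nuclei in the same pools, which tests the difference of the responses itself. It differed for 58 of 2432 genes (2.38%), more positive in endothelial nuclei for 21 (0.863%) and more negative for 37 (1.52%). Il1r1 led, with a difference of 2.71 ± 0.38 on the log2 scale (adjusted p = 3.19e-09, edgeR), in 4 of 4 pairs; other nuclei went from 20.4 to 20.6, 20.4 to 15.0, 14.8 to 7.86 and 5.19 to 3.48 CPM in the Vehicle, PLX5622, WT and KO pairs. Without nuclei carrying other cell types' UMIs this difference was 1.17 (adjusted p = 0.494). Acer2 followed at 2.61 ± 0.43 (adjusted p = 2.05e-06), Fryl at 1.42 ± 0.24, Stat3 at 1.56 ± 0.41 and Vwf at 1.69 ± 0.47 (adjusted p = 0.0183). Of 7 tested genes of the corticosteroid list 2 differed, beside 2.38% of all genes: Fkbp5 by 1.92 ± 0.43 (adjusted p = 0.00200) and Zbtb16 by 0.95 ± 0.24 (adjusted p = 0.00644). In other nuclei Fkbp5 went from 61.9 to 114 CPM in the KO pair and from 102 to 112 CPM in the Vehicle pair. Without the PLX5622 pair or without the WT pair Fkbp5 did not pass (1.78, adjusted p = 0.0639, and 1.34, adjusted p = 0.347).

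Plekhg1, Ccdc85a, Fmnl2, Adgrl3, Arl15 and Hdac9 completed the leading 10 on the positive side, at 1.12, 1.23, 1.22, 0.99, 0.95 and 1.07. For Lef1 the difference of 1.31 ± 0.22 (adjusted p = 3.12e-06, edgeR) came with an endothelial change of 0.01, while other nuclei went from 21.3 to 3.26, 22.1 to 11.7, 37.0 to 7.14 and 6.44 to 10.2 CPM, so that gene differed through the other nuclei in 3 of 4 pairs. On the negative side, Ndnf differed by -1.94 ± 0.45 (adjusted p = 0.00350) and Plxnd1, a semaphorin receptor, by -1.74 ± 0.42 (adjusted p = 0.00485), with endothelial levels of 143 and 62.6, 159 and 68.1, 141 and 98.9, and 144 and 79.5 CPM. The other leading negative genes, Unc13a, Spock1, Rn18s-rs5, Tenm3, Dpp10, Pdzd2, Ctnna2 and Pcdh9, gave -1.82 to -0.98.

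The deletion of Il1r1 in glutamatergic neurons left no gene past the threshold in endothelial nuclei. KO against WT, with stress in the model, called 0 of 2432 genes (0%) by edgeR and 0 by DESeq2, with 93 at an unadjusted p under 0.05. Il1r1 stood at 36.1 and 260.2 CPM in the KO and 96.7 and 432 CPM in the WT pools, a log2 difference of -0.86 ± 0.37 (adjusted p = 0.999), lower in both stress states. Nearest the threshold were Erbb4, a neuregulin receptor, at -1.37 ± 0.35 (adjusted p = 0.261), with 382 and 227 CPM in WT and 115 and 116 CPM in KO, and Kirrel3 at -1.26 ± 0.35 (adjusted p = 0.330), and, on the higher side, Lmntd1 at 0.91 ± 0.28 (adjusted p = 0.734). Cdh12, Negr1 and Ddi2 gave -1.27, -1.09 and -1.41, and Mgat4c, Atg4a, Rn7sk and Atxn7 gave 1.22, 1.04, 0.79 and 0.95, with adjusted p of 0.722 to 0.888. In simulated data of this size the same fit recovered 59.5% of 2-fold and 100% of 4-fold changes. The changed genes were drawn from the more abundant ones, with 1 spread for all genes and no single rich nuclei. Recovery in the real counts may therefore be lower.

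For Vwf the control pools of the 2 genotypes were far apart, with a Vwf UMI in 17 of 32 Control KO nuclei and 6 of 62 Control WT nuclei, beside 39.5 and 535 CPM in the WT and 310.1 and 383 CPM in the KO pair. Whether the response to RSD differed between genotypes or diets was not tested, since each such response is 1 pool against 1 pool.

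PLX5622 against vehicle diet called 3 genes of 2432 (0.123%), 2 higher (0.0822%) and 1 lower (0.0411%), and DESeq2 called 0. Adamts9, a secreted metalloprotease, stood at 191 and 159 CPM in Control Vehicle and Control PLX5622 and at 98.4 and 1715 CPM in RSD Vehicle and RSD PLX5622, so its log2 difference of 3.18 ± 0.43 (adjusted p = 2.57e-10, edgeR) came from RSD PLX5622 alone, where 151 UMIs lay in 29 of 58 nuclei. Tbc1d23, at 47.7, 0, 44.7 and 375 CPM in the same order, showed the same shape (2.64 ± 0.64, adjusted p = 0.0390). Morrbid, a long noncoding RNA, was the 1 gene that went the same way in both stress states, at 334 and 238 CPM in the control and 501 and 79.5 CPM in the RSD pools (-2.10 ± 0.52, adjusted p = 0.0390). Without RSD Vehicle or without RSD PLX5622, 0 genes passed. Il1r1 gave -1.34 ± 0.45 (adjusted p = 0.328), with 143 and 238 CPM in the control and 743 and 249.9 CPM in the RSD pools. Dlgap1, Grm5 and Fbxl7 gave 1.16, 1.43 and 1.20, and Ccnb1ip1, Sned1 and Rybp gave -1.69, -3.54 and -2.58, with adjusted p of 0.188 to 0.301. Cdyl2 had 0 UMIs in both PLX5622 pools and stood at 47.7 and 107 CPM in the vehicle pools (adjusted p = 0.221). In simulated data the fit recovered 10% of 2-fold and 87.5% of 4-fold diet differences, so most changes near 2-fold were not detectable at this depth.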

How the data were processed

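Nuclei were isolated from pooled hippocampi and barcoded with a split-pool kit (Parse Biosciences). The authors aligned reads to mm39 with the Parse pipeline and deposited counts of UMIs per gene and nucleus, whole numbers without scaling; the submitters' processing notes name mm39 and Seurat 4.1.1, and the annotation release is not given in the sources used here. The deposited counts still held 516 of 57350 nuclei over 20% mitochondrial UMIs, which were left out. No doublet caller was run. Pools were read from the condition recorded for each barcode.

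UMIs of endothelial nuclei were summed per pool and fitted with edgeR 4.0.16 (quasi-likelihood, TMM, filterByExpr, pair and stress as terms; R 4.3.3, limma 3.58.1), with Benjamini-Hochberg adjustment over 2432 genes. The 6 rule markers, Syt1, Snap25 and mitochondrial genes stayed in library sizes and were not tested. The difference from other nuclei was a class by stress term with pool as a term. The study tested single nuclei with MAST, which was not repeated, since nuclei of a pool are not replicates. Shares and CPM ratios were tested by exact sign-flip permutation over pairs or pools (SciPy 1.17.1, NumPy 2.4.6, pandas 2.3.3, Python 3.11.15). Intervals cover counting error only.

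Pairs are set by diet and genotype; deviations of same-pair pools correlated at 0.04, 0.12, 0.04 and 0.12. Members, lists and rules were chosen with earlier results of these data known. Genes named were Il1r1 and Il1rap, for each comparison up to 10 genes per direction with the smallest p among those past the threshold whose pairs or stress states all shared 1 direction (the next by p, up to 5, where fewer passed), the 3 most abundant and the passing genes of each list, the 15 genes with the highest ratio to other nuclei and the 5 most like Il1r1 (some are not reported here); further genes are marked as chosen after their values were seen. Rn7sk, Adamts9 and other passing genes outside that rule were not described for RSD. Alternatives were other normalization (none, DESeq2 1.42.0), count filters, stricter and looser rules, thinning to 500 UMIs, and leaving out pools or pairs; leaving out the richest, deepest or mural-marked nuclei and keeping only genes above 2 times their level in other nuclei were added after the data were seen, as were the venous comparison without a pseudocount and without Vwf. On simulated data with 200 genes changed, the RSD fit recovered 81% of 2-fold and 100% of 4-fold changes. Coordinates come from GENCODE vM39 (GRCm39).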

Additional observations from a re-analysis of the deposited data

Results flagged for a closer look

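In groups of 4 pools, 152 were examined for 1 pool standing far from the other 3, and 7 did. Chance gives about 1 in 20 groups, so 7 of 152 is not above what chance gives. All 7 were PLX5622 pools. Adamts9, Fbxl7 and Cdyl2 were examined as leading genes of the diet comparison, a choice that favours a PLX5622 pool standing apart. In Control PLX5622, the pool with 13 nuclei, Rbfox1 stood at 4368 CPM (1599.5 to 1882 in the other control pools), Il1rap at 397 CPM (71.6 to 101) and Arl15 at 476 CPM (1146 to 1276). In RSD PLX5622, Adamts9 stood at 1715 CPM (98.4 to 275 in the other RSD pools), Fbxl7 at 1204 CPM (369.8 to 491), Ndnf at 11.4 CPM (50.6 to 58.6) and Cdyl2 at 0 CPM (94.0 to 107).

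Of the 58 genes whose RSD response differed between endothelial and other nuclei, Il1r1 is given here, as the gene named in every comparison. Its response was higher in endothelial nuclei by 2.71 ± 0.38 on the log2 scale (adjusted p = 3.19e-09, edgeR).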

How the results depend on the processing

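The mean direction of the share of endothelial nuclei, of the Il1r1 ratio to other nuclei and of the venous difference held under each alternative run, but the share of the WT pair turned without Syt1 or Snap25 UMIs (mean log2 0.53, exact permutation p = 0.5, 4 pairs). The number of genes changed by RSD (110) was 25 with DESeq2, 20 without a count filter, 52 with a minimum count of 3, 9 without nuclei carrying other cell types' UMIs, 6 after thinning, 40 without the deepest nuclei, 6 without mural-marked nuclei, 16 among genes above 2 times their level in other nuclei, 2 in the diet pairs alone, 58 with no replicate block, 0 of 521 genes in nuclei without a Syt1 or Snap25 UMI, and 7 to 98 with 1 pair left out. All 25 of DESeq2 and all 58 of the fit without the block were among the 110. The number that differed from other nuclei (58) was 20, 9, 23, 12, 2, 24 and 11 under the first 7 of these, 0 without Syt1 or Snap25 UMIs, 8 in the diet pairs, 101 in the genotype pairs and 12 to 68 with 1 pair left out. PLX5622 (3) gave 0 with DESeq2, without Syt1 or Snap25 UMIs, without mural-marked nuclei and without the block, 1 with no filter, a minimum count of 3, the stricter rule, thinning, no richest nuclei or enriched genes alone, 4 without other cell types' UMIs, where none of the 3 genes could be tested, and 0 to 3 with 1 pool left out. KO (0) gave 0 to 1, with 1 each without RSD WT and without RSD KO.

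Venous markers no longer passed after thinning (1.81, p = 0.13, exact permutation, 4 pools) or without Syt1 or Snap25 UMIs (1.12, p = 0.5, exact permutation, 2 pools), which cannot reach 0.05. Arterial markers turned positive there (0.80 and 0.14), and capillary markers were -1.06 and -1.20, and -0.46 to -0.29 with 1 pool left out. The other turns of sign were in values that had not passed, apart from Tbc1d23 for PLX5622: with 1 pool left out, Tbc1d23 ranged from -5.49 to 2.93, Fbxl7 from -0.48 to 1.52 and Il1r1 from -1.58 to 0.53, the turned values being those without RSD PLX5622, and Ccnb1ip1 from -2.41 to 2.08, which turned without RSD Vehicle. Il1r1 gave 0.73 without other cell types' UMIs. For KO, Lmntd1 gave -0.0327 and Rn7sk -0.33 without other cell types' UMIs, Rn7sk -0.24 without mural-marked nuclei, and Il1rap -0.27 to 0.54 with 1 pool left out, below 0 without Control WT or RSD KO. Il1rap against other nuclei gave 0.0579 without the deepest nuclei and 0.13 in the genotype pairs. The causes were not tested. Of the genes that differed from other nuclei, 9 were more positive and 0 more negative without a count filter, 17 and 6 with a minimum count of 3 and 18 and 6 without the deepest nuclei, against 21 and 37. Of 353 values for 22 genes named for RSD under alternatives, 270 kept direction and call and 83 kept direction only. Depth limits the rest: 30 of 335 members had under 500 UMIs, and a pool with 13 nuclei stands in each diet comparison.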

Other observations

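Some genes outside the comparisons above were measured well enough to give their level in endothelial nuclei. Apcdd1, a Wnt-induced gene of the barrier, stood between 159 and 525 CPM over the 8 pools. Itga1 and Itga6, integrins that hold the cell to its basement membrane, ranged from 318 to 795 CPM and from 318 to 864 CPM. Inpp5d, the most abundant of the microglia markers, had 121 UMIs in 79 of the 335 nuclei (117 CPM against 15.7 CPM in other nuclei). In RSD WT, the pool with the deepest endothelial nuclei, 11 of 52 had no Syt1 or Snap25 UMI, and in RSD PLX5622 36 of 58 had none.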
